A study of Mus musculus with 2 samples.

Results

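Tnnt2 encodes the troponin T of cardiac muscle, which embryonic and differentiating skeletal muscle also makes. The wells described here are cultured mouse muscle stem cells, selected on the measured Tnnt2 count of each well: at least 1 count was found in them. Tnnt2 values are therefore given as a description only. They are 89 of the 241 wells of plate 2 that held at least 500 gene counts and 250 genes, and the other 152 wells held no Tnnt2 count. Those 241 wells are part of 456 kept wells in the series. Muscle stem cells, also called satellite cells, had been sorted by FACS into 384-well plates, and their polyadenylated RNA was read by a modified CEL-Seq2 protocol, which tags each well with a barcode. Plate 2 held 120 low glucose wells (5 mM glucose) and 121 galactose wells (10 mM galactose). Both media were DMEM with 1 mM pyruvate, fetal bovine and horse serum, chick embryo extract, bFGF and antibiotics, and the cells had grown in them for 96 h. Plate 1 was used only to place Tnnt2, Myod1 and Chrna1 across conditions. It held 102 freshly isolated wells, called quiescent in the labels, and 113 wells grown for 96 h with 25 mM glucose.

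Myf5 and Myod1 are transcription factors that commit cells to the muscle lineage. Before a cell of this lineage fuses into a fibre, it begins to make contractile proteins and the acetylcholine receptor of the nerve-muscle synapse. Troponin T anchors the calcium-sensing troponin complex to tropomyosin on the thin filament. Chrna1 is the ligand-binding alpha subunit of the muscle acetylcholine receptor. MyoD-family factors bind E-boxes, and TEAD factors bind the M-CAT motif, which is known from a cardiac troponin T promoter.

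The 250 bases before the RefSeq start sites of both genes are shown because Tnnt2 defines the wells and Chrna1 is its companion marker. Capitals mark E-boxes (CANNTG, read on both strands), and the build is GRCm38.p6. The Tnnt2 window is at chr1:135836084-135836333 on the plus strand, and the Chrna1 window is at chr2:73580339-73580588 on the minus strand.
Tnnt2: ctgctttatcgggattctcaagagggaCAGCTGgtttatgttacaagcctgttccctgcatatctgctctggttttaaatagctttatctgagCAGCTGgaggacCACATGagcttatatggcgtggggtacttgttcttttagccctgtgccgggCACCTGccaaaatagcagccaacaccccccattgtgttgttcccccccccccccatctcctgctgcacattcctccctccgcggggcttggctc
Chrna1: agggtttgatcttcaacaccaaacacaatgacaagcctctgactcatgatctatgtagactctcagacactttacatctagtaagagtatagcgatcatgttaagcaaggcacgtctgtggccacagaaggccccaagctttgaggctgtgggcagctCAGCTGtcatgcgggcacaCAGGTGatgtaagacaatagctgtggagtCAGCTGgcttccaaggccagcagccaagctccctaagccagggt
The Tnnt2 window held 4 E-boxes, of which 2 were of the form CAGCTG, and 1 M-CAT motif (CATTCC). The Chrna1 window held 3 E-boxes, 2 of them CAGCTG, and no CATTCC. Of 32841 RefSeq windows of this length, 66.2% held an E-box, 12.2% held 3 or more, 13.0% held CAGCTG (itself an E-box) and 12.6% held CATTCC. MEF2 and CArG motifs had no match in either window and were found in 2.92% and 1.47% of all windows. A second RefSeq start of Tnnt2 had 1 E-box before it. Of the 6 leading genes described below, Csrnp2 had 2 E-boxes, and Hspa1b, Sars2, Ttc9c and Got1 had none. Such matches describe the letters only.

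Tnnt2 (ENSMUSG00000026414, GENCODE M21 gene on chromosome 1, 135836354 to 135852260) was found at very low counts. The 241 wells held 152 Tnnt2 counts in all: 51 wells had 1 count, 23 had 2, 8 had 3, 4 had 4 and 3 had 5. Wells with 1 count thus lay just inside the rule and made up 57.3% of the positive wells, and wells with 0 lay just outside it. The 7 wells with 4 or more counts were galactose wells. Pooled over the positive wells the level was 82.4 CPM, counts scaled to a total of 1000000 gene counts. A count of 0 allowed, at 3 counts, up to 74.1 CPM in the deepest negative well, 262 CPM in the median one and 1753 CPM in the shallowest. In 150 of the 152 negative wells a count of 0 therefore still allowed the level of the positive pool.

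**Figure D1:**
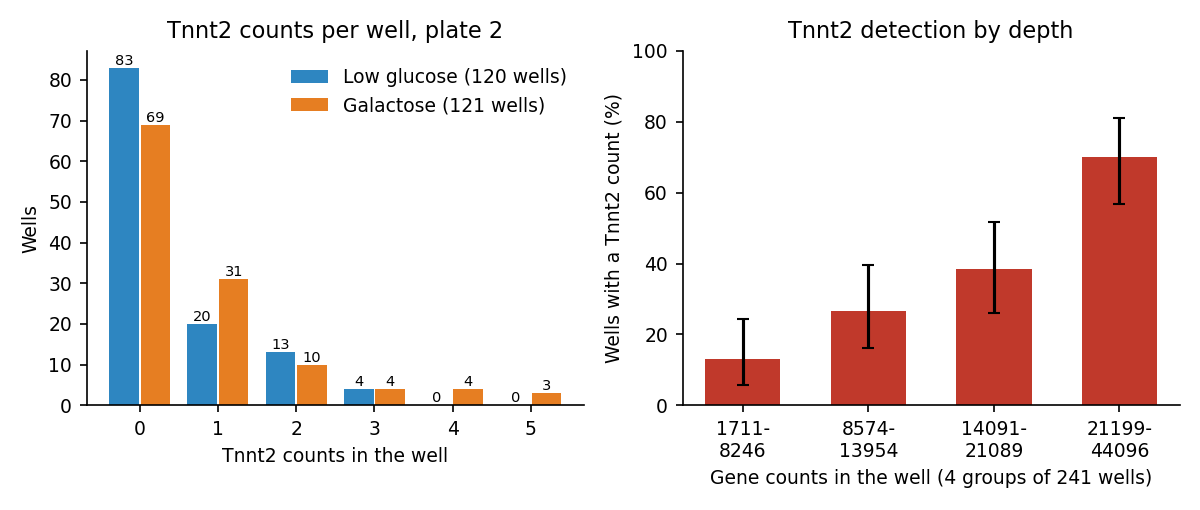
Left, number of wells (vertical axis) by Tnnt2 counts in the well, in 120 low glucose and 121 galactose wells; most wells had 0 or 1 count, and the 7 wells with 4 or 5 counts were galactose wells. Right, percentage of wells with a Tnnt2 count in 4 groups of the 241 wells ordered by gene counts, with exact binomial 95% intervals; it goes from 13.1% to 70.0%.

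Detection of Tnnt2 followed the depth of the well. With the wells ordered by gene counts into 4 groups of 60 or 61, a Tnnt2 count was found in 13.1% of the shallowest, 26.7% and 38.3% of the next ones and 70.0% of the deepest. The Tnnt2 level over these groups was 28.6, 29.6, 37.6 and 48.5 CPM. The positive wells held 3969 to 44096 gene counts with a median of 19557, and the negative wells 1711 to 40470 with a median of 11459. Spike-in counts, from synthetic RNA added to the wells, had medians of 335 and 251, so the deeper wells were also deeper in RNA that the cells did not make. For this reason each positive well was paired with a negative well of the same medium within 1.2-fold in gene counts, Tnnt2 left out. This gave 73 pairs, 29 in low glucose and 44 in galactose, and left 16 positive wells unmatched. The matched medians were 15940 and 15659 gene counts, and the pools held 1363380 and 1241977. Gene counts per spike-in count still had medians of 48.0 in the positive and 55.4 in the negative wells.

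Across conditions Tnnt2 was highest in the 2 media of plate 2. It was found in 52 of 121 galactose wells (43.0%, exact binomial 95% interval 34.0 to 52.3) at 46.2 CPM, and in 37 of 120 low glucose wells (30.8%, 22.7 to 39.9) at 33.4 CPM. The galactose to low glucose ratio was 1.38, with a 95% interval of 0.985 to 1.95 that held 1, so these neighbours did not differ beyond counting error. Freshly isolated wells had 5 Tnnt2 counts in 5 of 102 wells (17.6 CPM), and high glucose wells had 1 count in 113 wells (1.13 CPM). Plate 2 stood 35.8 times (6.33 to 1423) above high glucose and 2.29 times (0.960 to 7.16) above freshly isolated wells, the latter with an interval that held 1, and here plate and condition cannot be told apart. After each well was thinned to 2000 gene counts, Tnnt2 was found in 6.67% of galactose wells, 5.83% of low glucose wells, 4.88% of freshly isolated wells and 0.926% of high glucose wells. At that depth the order of the first 3 lay within their intervals. All intervals here cover counting error only. There was 1 library per plate, each medium filled its own 6 plate rows, and cells of 1 library are not replicates, so no test between groups was run.

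In the matched pools, 8689 genes had a mean of at least 10 CPM and are called measured. A gene is called higher or lower where its ratio was at least 1.5-fold and its 95% interval left out 1. By that rule 212 genes (2.44%) were higher in the Tnnt2-positive pool and 238 (2.74%) were lower. A 95% interval leaves 2.5% in each tail by construction, and both shares lay near that figure. The intervals also leave out the spread between wells. How many of the calls go beyond such error was not tested. The genes higher were 201 protein-coding genes, 3 pseudogenes and 8 others, and the genes lower were 83 protein-coding genes, 151 pseudogenes and 4 others. All measured genes had a median log2 ratio of 0.00, the 6873 protein-coding ones 0.06 and the 1625 pseudogenes -0.29. A ratio above 1 was found for 4349 of the 8689 measured genes. Pseudogenes took 21.7% of counts in the positive pool and 25.3% in the negative one, and their share was lower in the positive well of 44 of 73 pairs. Reads of a pseudogene and of its parent gene can be exchanged in counting, so pseudogene values are uncertain. With totals taken over protein-coding genes, 157 genes (1.64%) were higher and 426 (4.46%) lower, so that 26.9% of calls were higher in place of 47.1%. With pairs also matched on the pseudogene share, 157 genes (1.8%) were higher and 141 (1.61%) lower. The part of the pseudogene share in the calls was not tested beyond these values.

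**Figure D2:**
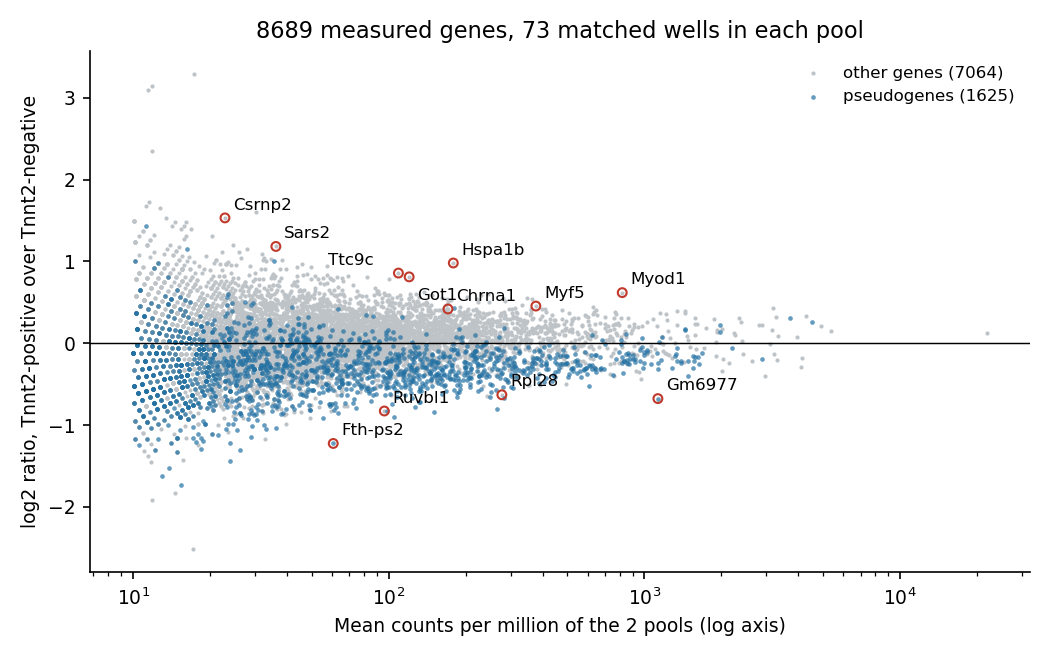
Log2 ratio of CPM, Tnnt2-positive over negative matched wells, against mean CPM (log axis) for 8689 measured genes, with 1625 pseudogenes in blue. Pseudogenes lie mostly below 0 (median -0.29); ringed genes are described in the text.

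The myogenic factor Myod1 (chromosome 7, 46376474 to 46379099) was the most abundant of the leading genes. Over matched wells its level ran from 142 to 2552 CPM with a median of 848 in the positive wells, and from 99.1 to 1613 CPM with a median of 538 in the negative wells. The groups overlapped widely, and the positive well was the higher one in 52 of 73 pairs. Pooled, Myod1 stood at 992 CPM against 646, a ratio of 1.54 (1.41 to 1.68), from 1352 and 802 counts. The ratio was 1.53 in low glucose and 1.54 in galactose. Without matching, it was above 1 in 10 of 12 plate rows, with a median of 1.58 and a range of 0.752 to 2.35. It lay above 1 in all 29 alternative settings (1.07 to 1.63) but passed the 1.5-fold limit in only 17 of them. Not all of these settings could move a ratio. A filter against foreign cell types had no well to remove, so it repeated the main comparison. Changing the expression minimum (to 50 CPM or to none) altered which genes were measured and left each ratio as it was. The counts of settings given below for other genes share this limit. The value of 1.07 came from wells thinned to 5000 gene counts with Tnnt2 status also taken from the thinned counts. Matched also on spike-in counts, Myod1 had a ratio of 1.48. Matched also on pseudogene share, it had a ratio of 1.38, and over all 241 wells its CPM had a Spearman correlation of -0.43 with that share.

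Myod1 did not climb with the number of Tnnt2 counts. It stood at 674 CPM in wells with no Tnnt2 count, 1062 with 1, 924 with 2 to 3 and 1086 with 4 or more. The step thus lay between none and 1 count. In these 4 classes the median gene counts were 11459, 15645, 24827 and 34193, so depth was greater where Tnnt2 counts were.

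In the matched pools, Myf5 and Pax7 also had ratios above 1, without passing the 1.5-fold limit. Myf5, the related factor of committed myoblasts, was at 435 against 317 CPM, a ratio of 1.37 (1.21 to 1.56), and it was below 1 in 1 of 29 alternative settings (0.773, with Tnnt2 status taken from thinned counts). Pax7, the paired-box factor of satellite cells, was at 74.8 against 51.5 CPM, a ratio of 1.45 (1.05 to 2.02). Of all 8689 measured genes, 2.44% were called higher and 4349 had a ratio above 1. In the list of myogenic transcription factors and cofactors, 20 were measured, 3 were higher and none was lower. Of these 20, 14 had a ratio above 1, and the median log2 ratio was 0.17. The 3 were Myod1, the homeobox factor Six2 (1.60, 1.03 to 2.53) and the cofactor Vgll2 (2.82, 1.39 to 6.16, from 34 and 11 counts). Mef2a and Mef2d, MADS-box partners of MyoD, had ratios of 1.13 and 1.33 with intervals that held 1. Among 12 measured markers of quiescent stem cells, 2 were higher, beside 2.44% of all measured genes. They were Vcam1, an adhesion molecule (1.75, 1.22 to 2.53), and Hs6st2, a heparan sulfate sulfotransferase (1.92, 1.2 to 3.16). With Tnnt2 status taken from thinned counts they were at 0.859 and 0.972, and Vcam1 was at 0.923 with 2 or more Tnnt2 counts against none. The median log2 ratio of that list was 0.30. Cdh15, the M-cadherin of satellite cells, was higher at 1.71 (1.03 to 2.90) but kept its call in only 10 of 29 settings.

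**Figure D3:**
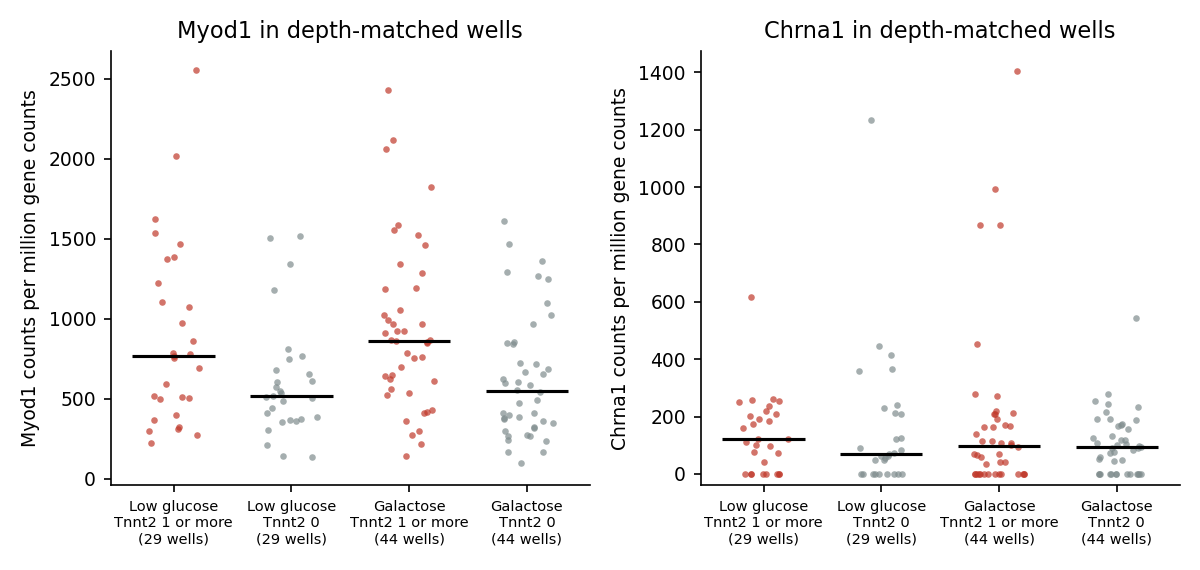
Myod1 (left) and Chrna1 (right) CPM of each matched well by medium and Tnnt2 status; points are wells and lines are medians. Myod1 medians are higher in Tnnt2-positive wells of both media (769 against 515 CPM and 864 against 548), and for Chrna1 a few wells lie far above the rest.

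Chrna1 (chromosome 2, 73563215 to 73580338) did not meet the call rule. It ranged from 0 to 1405 CPM with a median of 107 in the matched positive wells, and from 0 to 1235 CPM with a median of 82.6 in the negative ones. In both groups 51 of 73 wells held a count. Pooled, it was at 195 against 146 CPM, a ratio of 1.34 (1.1 to 1.63), and the positive well was higher in 35 pairs, the negative in 30, with 8 ties. In galactose the ratio was 1.83 (1.42 to 2.38), with medians of 98.0 against 93.1 CPM. There 4 of the 44 positive wells held 104 of 184 Chrna1 counts, and 4 of the 44 negative wells held 38 of 92. In low glucose it was 0.834 (0.610 to 1.14), although there the median was higher in the positive wells, at 122 against 69.7 CPM. Over all low glucose wells without matching the ratio was 1.18 (0.927 to 1.51), so the direction in low glucose turned with the choice of wells. In galactose it was 1.76 (1.40 to 2.22) without matching. By number of Tnnt2 counts, Chrna1 was at 132 CPM with none, 182 with 1, 153 with 2 to 3 and 375 (299 to 465) in the 7 wells with 4 or more. Of the 83 Chrna1 counts in those 7 wells, 59 lay in 2 wells, and the other 5 wells were at 152 CPM (97.3 to 226). After thinning to 5000 gene counts it was found in 49 of 87 positive wells (56.3%, 45.3 to 66.9) and in 48 of 132 negative wells (36.4%, 28.2 to 45.2). After thinning to 2000 the shares were 28.1% (19.1 to 38.6) and 21.9% (15.5 to 29.3), with intervals that overlapped.

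Other subunits and partners of the receptor had ratios on both sides of 1. Chrnb1, the beta subunit, had a ratio of 1.21 (1.01 to 1.45), and Chrnd, the delta subunit, 0.79 (0.51 to 1.23). Rapsn, which clusters the receptor, had 0.93 (0.72 to 1.19). Of 6 measured genes of the receptor and junction list none was called, and 3 had ratios above 1.

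**Figure D4:**
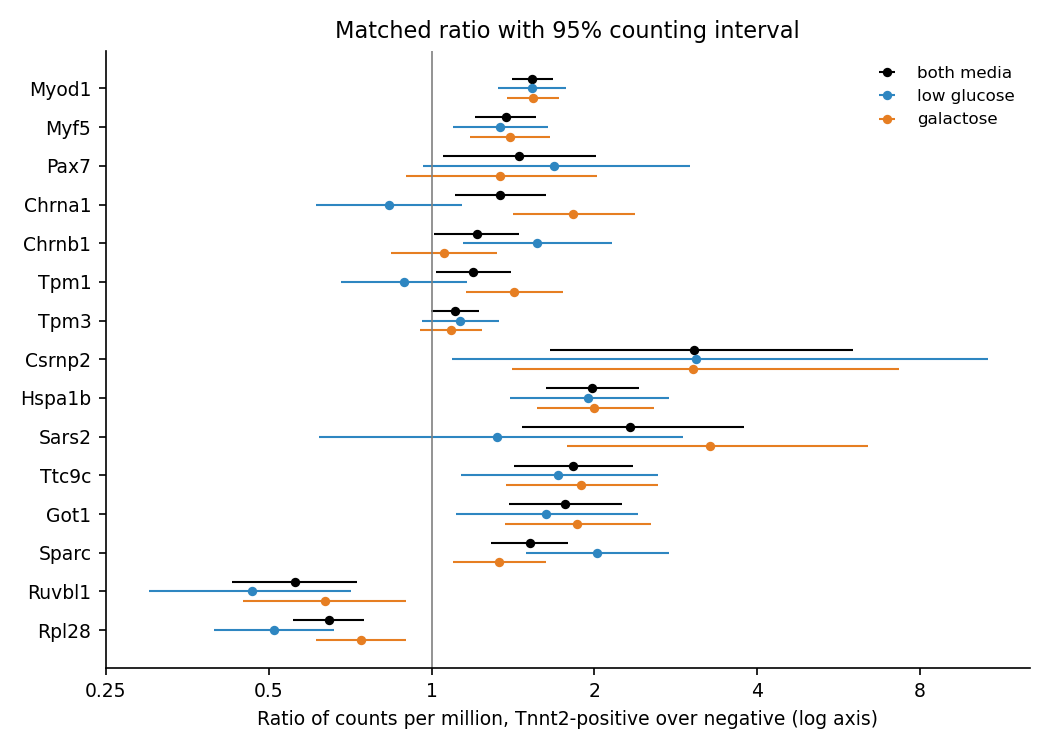
Ratio of CPM, Tnnt2-positive over negative matched wells (log axis), for 15 named genes, with 95% counting intervals, in both media together, in low glucose and in galactose. Myod1 is near 1.5 in both media, while Chrna1 is 0.834 in low glucose and 1.83 in galactose.

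Few contractile genes were measured, so the wells are called here by their Tnnt2 count and not as differentiating cells. Summed over the contractile lists without Tnnt2, matched wells had medians of 1141 CPM (402 to 2219) if positive and 1011 (204 to 2021) if negative. In the positive and negative pools, the myosin, actin and tropomyosin list gave 917 and 819 CPM. Its most abundant measured genes were Tpm3 and Tpm1, described below. The Z-disc and sarcomere assembly list gave 260 and 231 CPM, and the troponin list 0.733 and 2.42. With the receptor and junction list added, the medians were 1678 and 1438 CPM. None of the troponin list was measured, and its members other than Tnnt2 had 1 count in the positive pool and 3 in the negative. The 6 markers of a differentiating myocyte with a row, apart from Tnnt2 and Chrna1, were Actc1, Acta1, Myh3, Tnnt1, Myl4 and Tnnc1. Together they had 22 counts in 18 positive wells and 16 counts in 14 negative wells, a ratio of 1.25 (0.628 to 2.55). No well had more than 2 such counts, and Tnnt1 had none. Myog, the factor of terminal differentiation, was not analysed here. Abundant tropomyosins, which non-muscle cells also make, had ratios of 1.19 (1.02 to 1.40) for Tpm1 and 1.1 (0.997 to 1.22) for Tpm3. Of the 4 measured Z-disc and sarcomere assembly genes none was called. Their median log2 ratio was 0.22, with 0.80 in low glucose and -0.04 in galactose. In the dystrophin complex list 1 of 8 measured genes was higher, Sgca (2.13, and 0.710 to 2.99 over the alternative settings). In the muscle energy list 1 of 10 was higher, Phka1 (2.73, and 1.01 to 4.31). Of all measured genes 2.44% were called higher. Sgca kept its call in 18 and Phka1 in 16 of 29 settings. Stem cell and myoblast markers were abundant as a list: 3 or more of the 8 were found in 225 of the 241 wells. Most counts over these wells were of Myod1 (3164), Myf5 (1386), Cd34 (1022) and Itga7 (524). Pax7, Vcam1 and Cdh15 had 230, 191 and 112 counts, and Des had 4 counts in 4 wells. Of the other cell types listed, none had 3 or more of its markers in the same well. For cardiac muscle, immune, tenocyte and erythroid cells this says nothing, since only 1, 2, 2 and 0 of their markers had a row. The list for differentiating myocytes, Tnnt2 left out and Chrna1 included, had 3 or more in 4 wells. Of the marker list for cardiac muscle, which also makes Tnnt2, 1 gene had a row, with 0 counts in the positive pool and 1 in the negative.

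The 12 genes that led the comparison were not muscle structure genes. Csrnp2, a nuclear protein of the cysteine-serine-rich family, was at 34.5 against 11.3 CPM (3.06, 1.66 to 6.01). Sars2, the mitochondrial seryl-tRNA synthetase, was at 50.6 against 21.7 CPM (2.33, 1.47 to 3.78). Hspa1b, an inducible heat shock protein, was at 238 against 120 CPM (1.98, 1.63 to 2.42). Ttc9c, a tetratricopeptide repeat protein, was at 141 against 77.3 CPM (1.82, 1.42 to 2.35), and was higher in the positive well of 45 pairs. Got1, the cytosolic aspartate aminotransferase, was at 153 against 87.0 CPM (1.76, 1.39 to 2.24), and was higher in 46 pairs. Each had the same direction in both media, as the naming rule required. The remaining genes of the top 12 were Gpr137, Whrn, Ess2, Pced1a, Tmcc3 and Srek1ip1, with ratios of 1.95 to 2.60.

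Thinning to 5000 gene counts with Tnnt2 status from the full counts left all 12 above 1, with Sars2 at 3.20, Csrnp2 at 1.79, Ttc9c at 1.75 and Got1 at 1.19, but 8 of the 12 no longer met the call rule. When the status was also taken from the thinned counts, only 34 wells stayed positive, and Csrnp2 was at 0.544. Hspa1b was at 1.09 when pairs were also matched on pseudogene share. Its near-identical copy Hspa1a, with which it can share reads, had a ratio of 1.76 in the matched wells and 0.900 without matching.

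The lower genes were led by pseudogenes, which made up 10 of the top 12. Fth-ps2, at 35.9 against 85.3 CPM (0.421), and Gm6977, at 868 against 1389 CPM (0.625), are uncertain for that reason. The other 2 were Prdx6b and Ruvbl1, a DNA-dependent ATPase, which was at 68.9 against 123 CPM (0.560, 0.428 to 0.728). A further 6 protein-coding genes were picked after their values were seen: Rpl28, Msantd4, Timm13, Tomm5, Cxcl1 and Spata2. Cxcl1, a chemokine, turned to 1.42 when plate row I was left out, and a single well held 54% of its counts in the negative pool. Rpl28 encodes a protein of the large ribosomal subunit and was at 217 against 337 CPM (0.645, 0.554 to 0.750). It kept its call in 11 of 29 settings and was at 0.768 without matching, 0.882 thinned to 5000 gene counts and 0.865 matched also on pseudogene share. Among 50 measured cytosolic ribosomal protein genes it was the only one called, but 47 had a ratio at or below 1 and the median log2 ratio was -0.22. That list median stayed below 0 in all 30 alternative settings, from -0.31 to -0.04. Of all 8689 measured genes, 2.74% were called lower and 4349 had a ratio above 1. Ribosomal protein genes have many processed pseudogenes, and reads could be split between them.

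**Figure D5:**
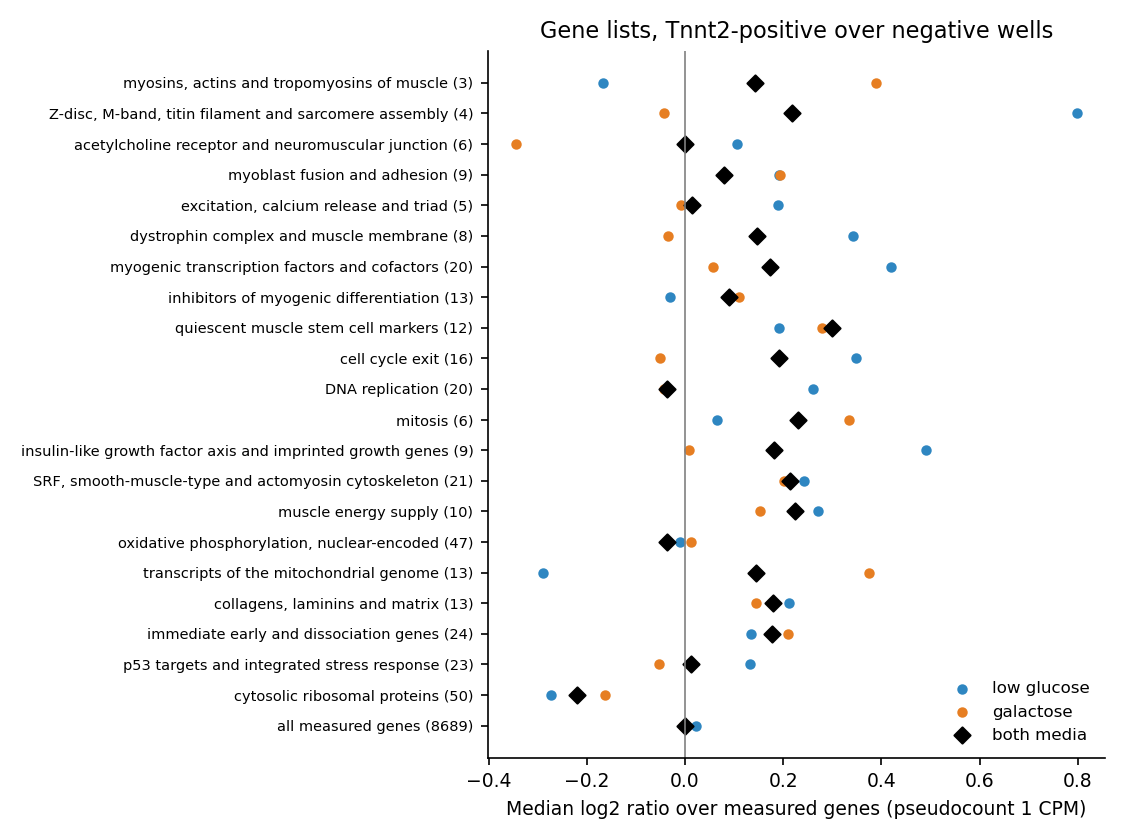
Median log2 ratio, Tnnt2-positive over negative matched wells, of the measured genes of each list (number in brackets), in both media (diamonds) and in each medium (circles). Medians run from -0.22 for cytosolic ribosomal proteins to 0.30 for quiescent stem cell markers, and several lists lie on opposite sides of 0 in the 2 media.

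Calls in other programmes are given here, beside 2.44% of all measured genes called higher and 2.74% called lower. Of 16 measured genes of cell cycle exit, 1 was lower and none was higher. The lower one was Cdkn2b, an inhibitor of cyclin-dependent kinases, at 8.07 against 23.3 CPM (0.346, from 11 and 29 counts). Cdkn1a, the p21 inhibitor, was at 2060 against 1673 CPM (1.23, 1.16 to 1.30), but at 1.04 without matching. Of 20 DNA replication genes 1 was higher, Mcm3 (1.87), a subunit of the replicative helicase, and of 6 mitosis genes none was called. In the matrix list 2 of 13 genes were higher, Sparc (1.52, 1.29 to 1.79) and Col3a1 (1.79, 1.15 to 2.86). Sparc, a secreted collagen-binding protein, was above 1 in 11 of 12 plate rows and kept its call in 16 of 29 settings. Markers of fibro-adipogenic cells, a neighbouring cell type of muscle, summed to 0 to 358 CPM per positive and 0 to 172 CPM per negative well, with 66 and 38 counts in all. Col3a1 gave 61 and 31 of these, 4 of the 5 markers with a row had a count, and Ly6a had none. Their part in the matrix values was not tested. Among p53 targets and stress response genes, 2 of 23 were higher, Sesn1 (2.62, 1.13 to 6.77) and Pmaip1 (1.74, 1.01 to 3.06), and Trib3, a pseudokinase induced by amino acid stress, was lower (0.554). Sesn1 kept its call in 13 of 29 settings, over a range of 1.18 to 4.98. Of 47 nuclear-encoded oxidative phosphorylation genes none was called, with a median log2 ratio of -0.04. No mitochondrial transcript was called, and their median log2 ratio was -0.29 in low glucose and 0.38 in galactose.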

How the data were processed

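Counts per gene and well of plate 2 were used as deposited by the authors, whole numbers with no normalization. Plate 1 was used only for Tnnt2, Myod1 and Chrna1 across conditions. Per the labels, bases 1 to 6 of the first read were a UMI and bases 7 to 14 a barcode. The sources used here do not give how reads were aligned and counted, on which build and annotation, or whether UMIs were collapsed. The tool listed in the submitters' processing notes is edgeR, with neither version nor role. The medium of a well came from the deposited well sheet. The plates share 200 barcodes, and none repeats within a plate. Of 21216 gene identifiers 99.6% received a symbol. Biotypes and gene positions came from GENCODE M21, and promoters from RefSeq (GRCm38.p6, 7 of 8 genes matched). Myod1 was not matched.

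Pairs came from an optimal assignment on log gene counts (scipy 1.17.1). Pooled counts were scaled to CPM without Tnnt2 in the total, and ratios carry exact conditional (Clopper-Pearson) 95% intervals. CPM intervals are exact Poisson and shares exact binomial. List medians used a pseudocount of 1 CPM. TMM factors came from edgeR 4.0.16. The pooled comparison was tested on simulated data in which all wells of a pool shared the same profile. That test therefore cannot show how the intervals behave where wells differ. No doublet caller was run.

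Members, lists and tests were chosen with earlier results of these data known. Named were the 12 higher and 12 lower genes with the interval bound farthest from 1 (mean of at least 20 CPM, counts in at least 10% of wells of the higher group, same direction in both media), up to 2 abundant and 2 called members of each of 22 lists, and a fixed set. Some genes the rule named are left out of the text. Other choices of matching, depth control, Tnnt2 threshold, scaling, expression minimum and plate rows were tried (15 in all), and 3 more for the gene calls, with further checks of Chrna1 by medium, were added after seeing the data.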

Additional observations from a re-analysis of the deposited data

Results flagged for a closer look

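Chrna1 and mt-Rnr2 lay on opposite sides of 1 in the 2 media with intervals that did not overlap. The matched ratio of Chrna1 was 0.834 in low glucose and 1.83 in galactose. That of mt-Rnr2, the large ribosomal RNA of the mitochondrion, was 0.868 in low glucose (0.823 to 0.915) and 1.30 in galactose (1.25 to 1.36). At first only genes whose intervals both excluded 1 were to be picked out, which gave mt-Rnr2 alone. The criterion was widened after the values were seen, and Chrna1 enters only through that change. With equal weight per well the matched ratio of mt-Rnr2 in low glucose was 0.960, and the medians there were 4804 CPM in positive and 4432 in negative wells, a ratio of 1.08. The difference between the media was not tested, since each medium was 1 set of plate rows of 1 library. Over all low glucose wells, without matching, the ratios were 1.18 for Chrna1 and 0.977 (0.937 to 1.02) for mt-Rnr2, and the intervals of Chrna1 in the 2 media then overlapped.

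Tnnt2 was also counted outside the compared wells, in 5 freshly isolated wells of plate 1, with 1 count in each.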

How the results depend on the processing

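The numbers of genes higher (212) and lower (238) changed by over 1.5 times under some settings. They were 344 and 418 with 2 or more Tnnt2 counts against none, 329 and 361 in low glucose wells alone, and 56 and 65 at a minimum of 50 CPM. Only the lower genes moved so far with pairs within 1.1-fold (371), with no minimum (361), with totals over protein-coding genes (426) and with pairs also matched on pseudogene share (141). Leaving out each plate row gave 188 to 261 higher and 217 to 349 lower genes, and a Chrna1 ratio of 1.12 to 1.49. Chrna1 was at 1.85 after thinning to 5000 counts, 0.834 in low glucose and 1.83 in galactose. Among genes called higher or lower, ratios that crossed 1 were Hspa1a at 0.900 without matching, 0.812 thinned and 0.860 matched on pseudogene share, Prdx6b at 1.18 thinned, Cdh15 and Vcam1 at 0.923 with 2 or more Tnnt2 counts, and Cxcl1, at 0.432 to 1.42 over single rows left out (1.42 without row I). With Tnnt2 status from thinned counts, where 34 wells were positive, these were Csrnp2 0.544, Gpr137 0.907, Whrn 0.892, Pced1a 0.871, Tmcc3 0.495, Prdx6b 2.07, Msantd4 1.26, Cdh15 0.806, Sgca 0.710, Vcam1 0.859 and Hs6st2 0.972. Of 47 uncalled named genes 31 crossed 1 in some setting. The cause was not tested. No analysis paired by replicate was possible because the labels give 1 library per plate, so the groups compared share no replicate numbers. The pairs of wells were matched on medium and gene counts only.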
